A study of Oryctolagus cuniculus with 16 samples.

Results

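The TGF-beta, BMP and activin pathway was followed in the vaginal wall of rabbits through 48 genes, chosen by symbol from 13001 named genes. The set includes the ligands TGFB2 and TGFB3, the inhibin and activin subunits, the BMPs and GDFs, the latent binding proteins LTBP1 and LTBP2, the receptors, the Smads, the antagonists CHRD, FST, GREM1 and NOG, the repressor SKIL and the matrix protein TGFBI. Symbols such as TGFB1, BMP7, LTBP3, LTBP4, SMAD6, SKI, BAMBI and GDF15 had no row among the named genes. They were therefore not analysed here, and nothing is said of their levels. Poly(A) RNA was sequenced from female New Zealand White rabbits of 17 to 19 weeks in 16 libraries. They comprise 6 unoperated controls (control 2, 9, 16, 24, 25 and 29), 3 sham operations (sham 11, 12 and 14), 3 acellular grafts, labelled as without particles (acellular 6, 8 and 10), and 4 grafts carrying tissue particles of the animal itself, called PLATE (PLATE 1, 5, 9 and 13). Tissue of either graft type came from 10 mm away from the grafted zone. The sampling site of sham and control tissue and the time after surgery are not given in the sources used here, so site and graft cannot be told apart in comparisons with them. The number 9 is used for a control and for a PLATE animal, although the design counts 16 rabbits.

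Ligands of this superfamily are secreted as dimers and bind a pair of type I and type II receptor kinases, which phosphorylate Smad proteins. TGF-beta and activin receptors act on SMAD2 and SMAD3, BMP receptors on SMAD1, SMAD5 and SMAD9, and both classes share SMAD4. TGF-beta is stored in the matrix in a latent complex bound to LTBP proteins, while chordin, noggin and follistatin trap BMPs or activins before they reach a receptor. In healing tissue the TGF-beta branch is known for driving matrix synthesis and contractile fibroblasts.

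Depth was 20992063 to 30695000 counts a library, with 15348880 to 23236339 assigned to genes that have a name. Levels are given as CPM, counts scaled to a common effective library size. The factor applied to library size was 0.592 in control 2 and 0.917 to 1.15 in the other 15 libraries, which raises every CPM of control 2. The members together took 0.105 to 0.266% of the named-gene counts. All 8 female reproductive tract markers, ESR1, PGR and HOXA13 among them, had counts in every library, with a sum of 252 CPM in PLATE 1 and 542 to 892 CPM in the other 15 libraries. Of the 8 markers, 4 had their lowest value in PLATE 1, namely ESR1, PGR, HOXA13 and WT1, while WNT5A had its highest there. PLATE 1, control 2 and control 9 stand apart from their groups in the summed markers of other cell types given below, so values without them are printed where they bear on a result. Each library comes from 1 animal, so the spread within a group holds differences between animals together with those of tissue sampling and library preparation. In bulk tissue, fewer cells of a type and less RNA per cell cannot be told apart.

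Of the 48 members, 40 passed the filter on low counts. The 8 others were GDF2, the circulating ligand BMP9, with 0 counts in all 16 libraries, BMP10 with 2 counts in all, INHBC and INHBE with 6 each, GDF6 with 26, the BMP antagonist NOG with 42, the receptor ACVR1C with 59 and GDF5 with 76. A count of 0 in a library allows up to 3 counts, which was 0.27 CPM in control 2, and such limits cover counting error only. These genes were not detectable or barely detectable at this depth, and no comparison is made for them.

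No member passed the test for an effect of treatment. By the quasi-likelihood test of edgeR, 0 of the 40 passed an adjusted p of 0.05 in any of the 6 pairwise comparisons, in the operated groups against control, or in the joint test of the 4 groups. The same was true of all 10942 genes tested (0% called in each comparison), and DESeq2 and limma voom also called 0 members in each. Over the 8 comparisons DESeq2 held 1 to 4 members at an unadjusted p under 0.05, where 4.31 to 9.24% of all genes were. Limma voom held 4 to 10, where 4.9 to 24.2% of all genes were. Its 10 were for acellular against sham, the comparison with that 24.2%, in which it called 72 of all genes after adjustment. DESeq2 called at most 17 of all genes, for acellular against control. At an unadjusted p under 0.05, edgeR held 4 of 40 members for PLATE against sham (7.5% of all genes), 3 for PLATE against control (4.39%), 2 for sham against control (2.98%) and 1 each for acellular against control (6% of all genes), acellular against sham (4.87%) and PLATE against acellular (4.71%). It held 0 for the operated groups against control (3.88%) and 1 for the joint test (4.8%). These edgeR counts lay near the background of all genes. The groups accounted for a median of 19.5% of the variance of a member across libraries and 18.4% over all genes.

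The median member lay near 0 in each comparison. Its log2 fold change was -0.02 for acellular against control, 0.05 for PLATE against control and 0.13 for sham against control, beside -0.03, -0.01 and -0.06 over all genes. Members higher than in control numbered 20 of 40 in acellular (45.8% of all genes), 25 in PLATE (47.7%), 29 in sham (42.1%) and 23 in the operated groups together (44.8%). For acellular against sham the median was -0.14 with 14 members higher (52.2% of all genes), for PLATE against sham -0.13 with 18 higher (52.6%) and for PLATE against acellular 0.02 with 20 higher (52.4%), beside 0.02 over all genes in each. These comparisons share libraries and are not independent of each other. The spread between libraries of a group was widest in control and PLATE, where the median SD of a member was 0.542 and 0.543 on the log2 scale (0.416 and 0.393 over all genes), against 0.191 in sham and 0.349 in acellular (0.182 and 0.337 over all genes).

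**Figure D1:**
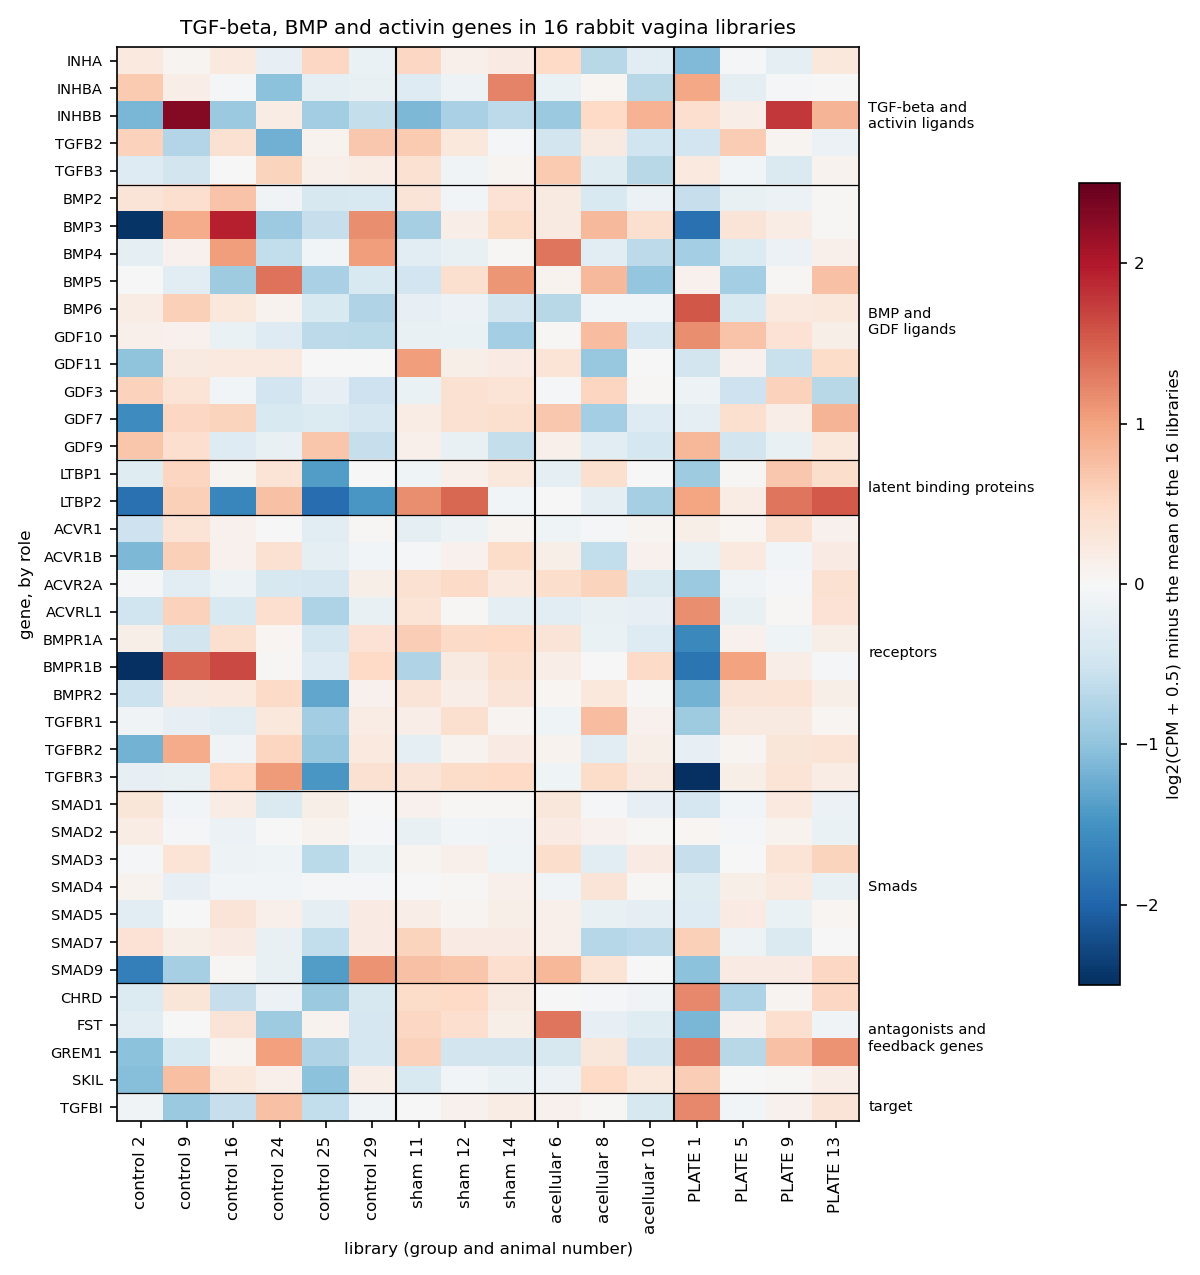
Level of 39 of the 40 tested members (rows, by role) in the 16 libraries (columns, black lines between groups), as log2(CPM + 0.5) minus the gene's mean over the libraries, with the colour scale ending at 2.5 units either way. No block of rows sets 1 group apart from the others, and each receptor row has its lowest value in control 2, control 25 or PLATE 1.

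The ranges of both TGF-beta ligands measured overlapped in all groups. TGFB2 had 29.5, 81.3 and 108.9 CPM as the lowest, median and highest control value, and 108.4, 82.2 and 66.7 CPM in sham 11, 12 and 14. It stood at 50.0, 80.0 and 48.4 CPM in acellular 6, 8 and 10, and at 49.2, 106.2, 71.5 and 61.5 CPM in PLATE 1, 5, 9 and 13. The groups overlapped throughout, each operated group lying inside the control range. TGFB3 averaged 42.5 ± 11 CPM (SD, n = 6) in control, 44.9 ± 7.47 (n = 3) in sham, 41.2 ± 21.2 (n = 3) in acellular and 40.7 ± 7.04 CPM (n = 4) in PLATE. Its acellular values were the most spread, at 65.2, 33.3 and 25.1 CPM.

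Among the activin and inhibin subunits, INHBA, which forms activin A, averaged 28.2 ± 10.5 CPM in control, 39.4 ± 25.7 in sham, 24.2 ± 6.24 in acellular and 34.5 ± 15.1 in PLATE. The highest values were single libraries, 69.0 CPM in sham 14 and 57 in PLATE 1. INHBB, the subunit of activin B, was low and varied most between groups. It had 0.0931, 0.239 and 0.329 CPM in the sham libraries (2, 5 and 8 counts), against 1.23, 0.961, 3.92 and 1.82 CPM in PLATE 1, 5, 9 and 13. Every PLATE library lay above every sham library, with a log2 fold change of 2.70 ± 1.15 (SE, n = 4 against 3, edgeR adjusted p = 0.657), and 2.86 without PLATE 1. Controls spanned both groups, from 0.09 CPM in control 2 to 5.84 CPM in control 9, and with acellular at 0.182, 1.34 and 1.87 CPM no order of the 4 groups stands beyond the spread. Against control, sham stood at -2.12 ± 1.06, and at -0.54 without control 9. The 9 columnar epithelium markers, all counted in every library, summed to 546 to 789 CPM in sham, 314 to 1590 in PLATE, 803 to 1940 in acellular and 18.9 (control 2) to 2240 (control 9) in control. The marker sum and INHBB were both low in control 2 and both high in control 9 and PLATE 9. Other libraries departed from this order. Control 25 had 1020 CPM of the markers with 0.207 CPM of INHBB, control 24 had 432 with 0.977, and PLATE 1 had 314 with 1.23. The part of these markers in INHBB was not tested. INHA, the inhibin alpha subunit, lay between 1.49 CPM in PLATE 1 and 5.65 CPM in control 25.

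BMP and GDF ligands gave no common direction, 5 of the 10 tested being higher and 5 lower in acellular than in control, and 4 higher and 6 lower in PLATE than in control. GDF10, also called BMP3B, had the smallest p of the members for PLATE against both control and sham. Its levels rest on few reads, with 34, 34, 20 and 17 counts in PLATE 1, 5, 9 and 13, 4 to 12 in sham and 5 to 20 in control. It stood at 2.2, 1.48, 1.05 and 0.836 CPM in PLATE against 0.254, 0.520 and 0.810 CPM as lowest, median and highest control and 0.559, 0.575 and 0.165 CPM in sham. All 4 PLATE libraries lay above all controls and all shams, though PLATE 13 lay close to the highest control. The log2 fold change was 1.25 ± 0.467 against control (n = 4 against 6, edgeR adjusted p = 0.998) and 1.49 ± 0.580 against sham (n = 4 against 3, edgeR adjusted p = 0.657), and 0.97 and 1.21 without PLATE 1. Acellular, at 0.730, 1.55 and 0.395 CPM, overlapped all groups. It was the 1 member of 40 whose PLATE and control values did not overlap, a state seen in 0.119% of all genes.

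BMP6, an iron-regulating BMP made by endothelium, was high in a single library. It had 35.8 CPM in PLATE 1 and 9.00, 14.1 and 14.3 CPM in PLATE 5, 9 and 13, against 7.21, 11.4 and 11.3 CPM in acellular and 10.2, 10.7 and 8.48 CPM in sham. Its log2 fold change was 0.87 ± 0.416 against acellular (n = 4 against 3, edgeR adjusted p = 0.875) and 0.90 ± 0.415 against sham (adjusted p = 0.657), and 0.32 and 0.35 without PLATE 1. The 7 endothelial markers, all counted in every library, summed to 1160 CPM in PLATE 1, to 624 to 920 in the other PLATE libraries, 313 to 715 in acellular, 553 to 588 in sham and 243 to 808 CPM in control. PECAM1 made up 685 CPM of the PLATE 1 sum, against 165 to 175 CPM in the other PLATE libraries. Without PECAM1 the 6 others summed to 471 CPM in PLATE 1 and to 459, 745 and 513 CPM in PLATE 5, 9 and 13. The part of endothelial cells in the BMP6 values was not tested. BMP4, a mesenchymal BMP, reached 62.6 CPM in acellular 6 and 51 and 50.9 CPM in control 29 and control 16, against 13.4 to 26.7 CPM in PLATE. BMP2, which also signals through BMPR1A, lay between 5.5 and 14.1 CPM in every library. BMP3, BMP5, GDF3, GDF7, GDF9 and GDF11 made up the rest, and for none did the groups of a pairwise comparison separate. BMP3 was nearly absent from 2 libraries, with 1 count in control 2 and 6 in PLATE 1 against 26 to 269 elsewhere.

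The latent binding proteins differed in how they varied. LTBP1, which tethers latent TGF-beta to the matrix, averaged 271 ± 102.7 CPM in control, 294 ± 37.3 in sham, 290 ± 64.8 in acellular and 308 ± 124 in PLATE, with 3.72% of its variance between groups. LTBP2, which binds fibrillin fibres and unlike LTBP1 does not bind latent TGF-beta, had the largest share of variance between groups of the 40 members, 52.7%. Control 2, 16, 25 and 29 had 0.450, 0.618, 0.415 and 0.762 CPM, while control 9 and control 24 had 4.72 and 5.26 CPM. Sham 11, 12 and 14 had 7.22, 8.81 and 2.80 CPM, and PLATE 1, 5, 9 and 13 had 6.34, 3.41, 8.16 and 9.45 CPM. Acellular 6, 8 and 10 had 2.96, 2.42 and 1.43 CPM, below every PLATE library. All 10 operated libraries lay above 4 of the 6 controls, but the other 2 controls lay inside the sham and PLATE ranges and above acellular.

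For LTBP2 the log2 fold change was 1.68 ± 0.672 for PLATE against control (edgeR adjusted p = 0.998), 1.56 ± 0.716 for sham against control (0.963) and 0.14 for acellular against control. PLATE against acellular stood at 1.55 ± 0.844 (adjusted p = 0.875) and at 1.58 without PLATE 1, so that this value did not rest on that library. PLATE against control ranged from 1.48 to 2.19 when single libraries were left out. The 10 fibroblast markers, all counted in every library, summed to 12600 to 20400 CPM in acellular, 26000 to 50300 in PLATE, 26500 to 54900 in sham and 18300 to 49000 in control, and control 9 and control 24, high in LTBP2, stood at 19200 and 24300 CPM. COL1A1, COL1A2 and COL3A1, which are also TGF-beta target genes, gave 11600, 7600 and 6000 CPM of that sum in acellular. In PLATE they gave 39900, 18900, 21200 and 28700 CPM. The 7 other markers summed to 8810, 12600 and 6620 CPM in acellular and to 10400, 7050, 10500 and 11700 CPM in PLATE, with overlap. The part of either in the LTBP2 values was not tested.

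**Figure D2:**
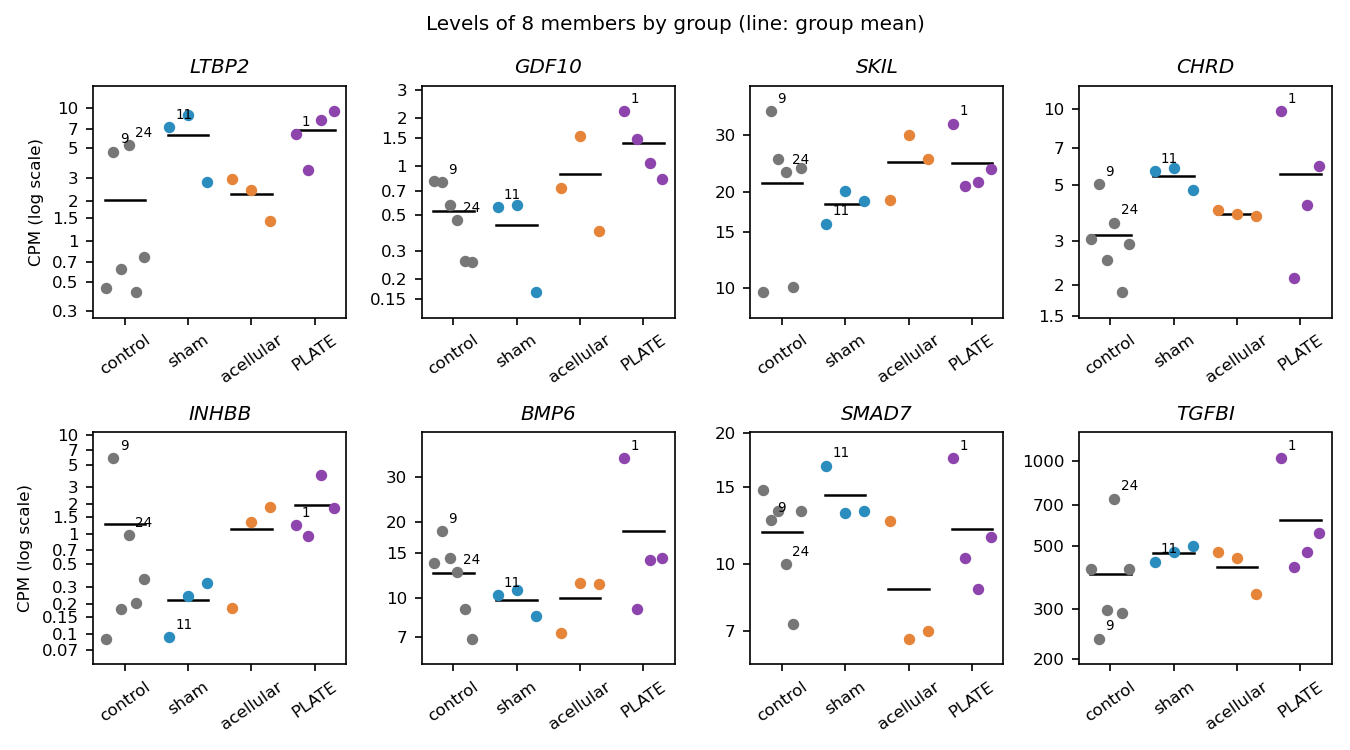
CPM on a log axis of 8 members in every library (points), by group, with the group mean as a line and the numbers of control 9, control 24, sham 11 and PLATE 1 beside their points. LTBP2 is low in 4 of 6 controls and in acellular, GDF10 has its highest mean in PLATE, and BMP6, CHRD and TGFBI have their highest point in PLATE 1.

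Receptor transcripts varied more between libraries than between treatments. For each of the 10 tested receptors the lowest of the 16 libraries was control 2 (4 receptors), PLATE 1 (4) or control 25 (2). Over all 40 members these 3 libraries held the lowest value for 28, or 70% of members, and for 46% of all genes tested. The 10 receptors that single out these libraries are among the 28, so part of the 70% follows from that choice. TGFBR3, betaglycan, the co-receptor that presents TGF-beta and inhibin, had 27.4 CPM in PLATE 1 and 188, 215 and 194 CPM in PLATE 5, 9 and 13. It had 61.3 CPM in control 25 and 146 to 353 CPM in the other controls, 213, 232 and 239 CPM in sham and 157, 233 and 198 CPM in acellular. Apart from PLATE 1 and control 25 the groups overlapped.

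TGFBR1, the type I receptor for TGF-beta, had 31.6 CPM in PLATE 1 and 32 CPM in control 25, against 48.5 to 100.7 CPM in the other 14 libraries. BMPR2, the main type II receptor for BMPs, likewise had 26.1 and 23.8 CPM there, 41.0 in control 2 and 60.4 to 82.8 CPM elsewhere. TGFBR2, the type II receptor for TGF-beta, followed another order, at 57.8 CPM in control 2, 68.1 in control 25, 113.6 in PLATE 1 and up to 250 CPM in control 9. The receptors were thus not all low in the same libraries. ACVRL1 (ALK1), the endothelial type I receptor, was highest in PLATE 1 at 62 CPM while BMPR1A, the widely expressed type I receptor for BMPs, was lowest there at 22.8 CPM. Values that moved in the same libraries were, in PLATE 1, the tract marker sum (252 CPM) and the sums of 10 macrophage markers (2300 CPM against 125 to 1080 elsewhere), 9 neutrophil markers (8080 against 48.4 to 1220, MPO being at 0 in 13 of 16 libraries), 9 B and plasma cell markers (36600 against 297 to 11000, BLK being at 0 in 2 libraries) and 4 T and NK cell markers (88.7 against 3.78 to 56.3). PLATE 1 was the highest library for 7 of the macrophage, 9 of the neutrophil, 8 of the B and plasma cell and 2 of the T and NK cell markers. In control 2 the 8 smooth muscle markers summed to 172000 CPM against 10500 to 89400 elsewhere, the columnar epithelium markers summed to 18.9 CPM against 314 to 2240, and mitochondrial transcripts took 26% of named-gene counts against 8.92 to 18.1%. Control 25 had the lowest endothelial (243 CPM) and macrophage (125 CPM) sums, with 12.5% mitochondrial counts. The part of these in the receptor levels was not tested.

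BMPR1A was the receptor whose groups separated most often. It stood at 109.3, 99.3 and 100 CPM in sham 11, 12 and 14, above every library of the other 3 groups. The controls lay between 51.6 and 93.8 CPM with a median of 75.7, acellular at 89.3, 63 and 56.7 CPM and PLATE at 22.8, 76.3, 65.5 and 78.3 CPM. The log2 fold change was -0.76 ± 0.334 for PLATE against sham (n = 4 against 3, edgeR adjusted p = 0.657; -0.49 without PLATE 1), -0.56 ± 0.361 for acellular against sham (adjusted p = 0.902) and 0.49 ± 0.307 for sham against control (adjusted p = 0.963). Separation of the small sham group was common among all genes, at 14.9% for PLATE against sham, where 4 of 40 members separated, and at 18.3% for acellular against sham, where 5 did. For sham against control 2 members separated, BMPR1A and ACVR2A, where 3.69% of all genes did. Between PLATE and acellular 3 of 40 did, LTBP2 and ACVRL1 among them (4.97% of all genes), and between acellular and control 0 of 40 (1.73%).

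ACVR2A, a type II receptor for activins and some BMPs, had the smallest p of the members for sham against control. It stood at 43.0, 46.2 and 39.2 CPM in sham against 24.5, 28.7 and 36.3 CPM as lowest, median and highest control, a log2 fold change of 0.55 ± 0.246 (n = 3 against 6, edgeR adjusted p = 0.963), which stayed between 0.49 and 0.62 when single libraries were left out. Acellular 6 and 8, at 44.7 and 48.7 CPM, lay above all controls and acellular 10, at 25.6 CPM, among them. PLATE libraries spread from 17.1 CPM in PLATE 1 to 42.8 in PLATE 13. ACVRL1 separated PLATE (62, 24.3, 28.1 and 35.6 CPM) from acellular (22.6, 24.0 and 23.7 CPM), but PLATE 5 lay just above the highest acellular value. Its log2 fold change of 0.67 ± 0.352 (adjusted p = 0.875) was 0.32 without PLATE 1. ACVR1 and ACVR1B, type I receptors for BMPs and activins, lay at 35.8 to 67.6 and 4.14 to 14.8 CPM. BMPR1B, a type I receptor for BMPs and GDFs, had 0 counts in control 2, 11 in PLATE 1 and 44 to 295 elsewhere.

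**Figure D3:**
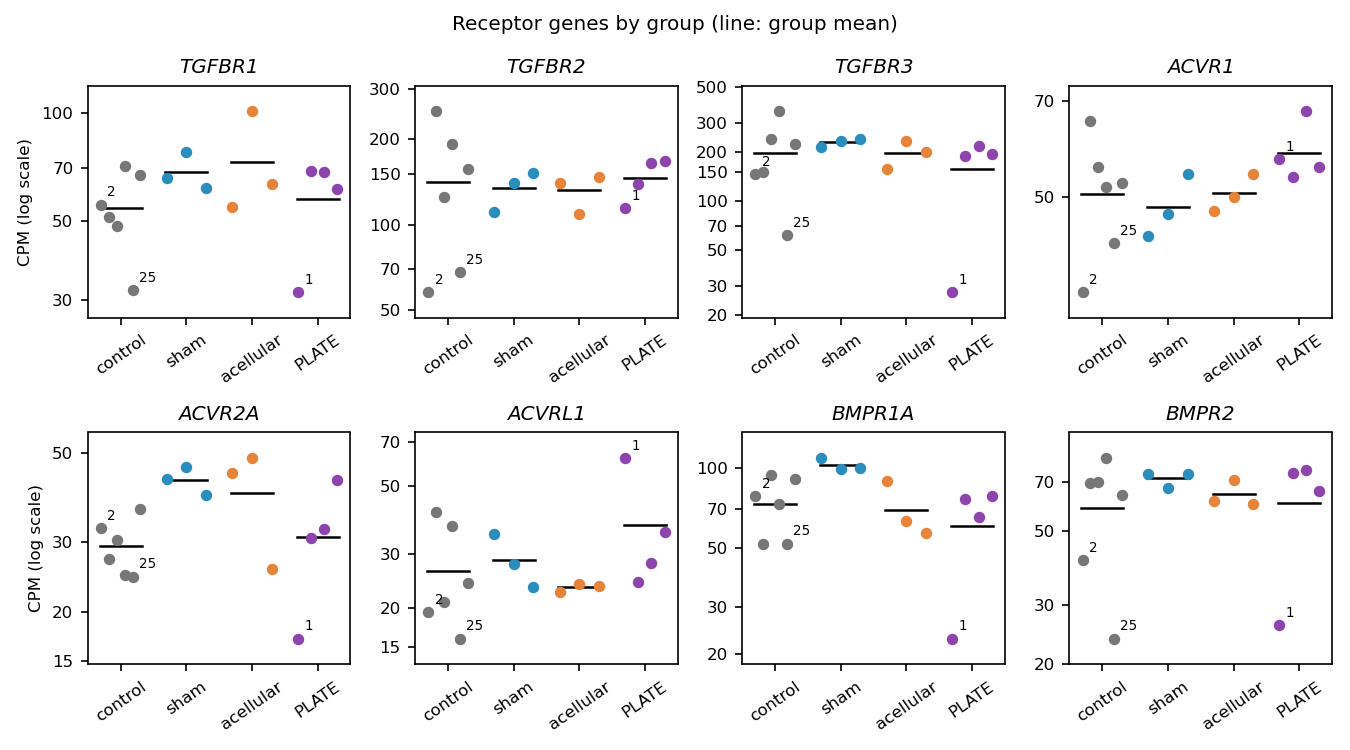
CPM on a log axis of 8 receptor genes in every library (points), by group, with the group mean as a line and the numbers of control 2, control 25 and PLATE 1 beside their points. PLATE 1 and control 25 lie lowest for TGFBR1, TGFBR3 and BMPR2, and the 3 sham points of BMPR1A lie above all others.

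SMAD1, SMAD2, SMAD4 and SMAD5 had narrow ranges, while SMAD3, SMAD7 and SMAD9 varied more. SMAD2, the activin and TGF-beta Smad, ranged only 1.31-fold over the 16 libraries, from 89.0 CPM in sham 11 to 117 CPM in acellular 6. SMAD4, the shared partner, ranged 1.56-fold, being lowest in PLATE 1 and highest in acellular 8 at 159 CPM. SMAD1 and SMAD5, which act for BMPs, ranged 1.68-fold and 1.56-fold. Because the spread was small, SMAD2 bounds a change most tightly. The operated groups against control stood at -0.02 ± 0.0836 on the log2 scale (95% interval -0.21 to 0.16). Its largest fold change was for acellular against sham, at 0.23 ± 0.132 (95% interval -0.06 to 0.51). There it had 117, 108.6 and 103.1 CPM against 89.0, 96.7 and 95.0 CPM, without overlap, as had 18.3% of all genes. SMAD3, the second Smad of the TGF-beta branch, averaged 9.96 ± 2.31 CPM in control and 11.0 to 12.0 CPM in the 3 operated groups.

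SMAD7, the inhibitory Smad that TGF-beta itself induces, had the smallest p of the members for acellular against sham. Sham 11, 12 and 14 stood at 16.8, 13.1 and 13.2 CPM, and acellular 6, 8 and 10 at 12.5, 6.72 and 7.0 CPM. Every acellular library lay below every sham library, acellular 6 by little. The log2 fold change was -0.71 ± 0.324 (n = 3 against 3, edgeR adjusted p = 0.902), -1.05 without acellular 6 and -0.55 without acellular 8. Controls (7.26 to 14.8 CPM, median 12.9) and PLATE (17.5, 10.3, 8.74 and 11.5 CPM) overlapped both. SMAD9, the third BMP Smad, was the most variable Smad, between 0.810 CPM in control 2 and 8.89 CPM in control 29, and averaged 6.12 ± 0.742 CPM in sham, 5.30 ± 1.68 in acellular, 4.04 ± 1.72 in PLATE and 3.32 ± 2.98 in control.

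Among the antagonists, chordin separated the groups in 1 comparison. CHRD, chordin, which holds BMP2 and BMP4 away from their receptors, averaged 3.15 ± 1.08 CPM in control, 5.43 ± 0.574 in sham, 3.85 ± 0.111 in acellular and 5.53 ± 3.27 in PLATE. PLATE values spread from 2.14 CPM in PLATE 5 to 9.83 CPM in PLATE 1. Its log2 fold change of 0.79 ± 0.350 against control (edgeR adjusted p = 0.998) was 0.36 without PLATE 1, while sham against control stood at 0.76 ± 0.378 (adjusted p = 0.963) and at 0.65 or more with any 1 library left out. Its sham and acellular libraries did not overlap (-0.49 ± 0.449, adjusted p = 0.902). Across the operated groups CHRD had the smallest p of the members, at 0.61 ± 0.290 (adjusted p = 1). FST, follistatin, the activin trap, was high in acellular 6 alone, at 23.0 CPM against 7.53 and 6.96 CPM in acellular 8 and 10. Its acellular against control value of 0.67 ± 0.399 turned to -0.11 without that library. GREM1 was low, with 0 to 35 counts a library. SKIL (SnoN), a Smad repressor that TGF-beta induces, stood at 32.5, 20.8, 21.4 and 23.5 CPM in PLATE and 15.9, 20.1 and 18.7 CPM in sham, without overlap and at 0.43 ± 0.372 (adjusted p = 0.759), or 0.26 without PLATE 1.

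TGFBI, a secreted matrix protein named for its induction by TGF-beta, was highest in PLATE 1 at 1030 CPM. PLATE 5, 9 and 13 had 423, 476 and 556 CPM, sham 441, 478 and 503 CPM, and acellular 479, 454 and 338 CPM. The controls had 235, 357 and 738 CPM as lowest, median and highest. The groups overlapped, and the log2 fold change for PLATE against control was 0.64 ± 0.305 (n = 4 against 6, edgeR adjusted p = 0.998) and 0.28 without PLATE 1.

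Genes known to respond to TGF-beta were mostly higher beside PLATE than beside acellular grafts, by an amount that depended on PLATE 1. The list of 36 symbols had 26 tested genes, 4 of them also members (LTBP2, TGFBI, SMAD7 and SKIL) and 4 also smooth muscle or fibroblast markers (ACTA2, COL1A1, COL1A2 and COL3A1). For PLATE against acellular 19 were higher and 7 lower, at a median log2 fold change of 1.44, and 12 were higher at an unadjusted p under 0.05 where 3.61% of all genes were. None passed after adjustment by edgeR (smallest adjusted p = 0.875). Without PLATE 1 the median was 0.29, with 4 higher and 1 lower at an unadjusted p under 0.05, or 19.2% of the list where 1.61% of all genes were. The median of the 4 marker genes was 1.58 without PLATE 1 and 1.70 with it, and that of the 22 others 0.22 and 0.98. The 8 smooth muscle markers, all counted in every library, summed to 15600 to 22100 CPM in acellular, 42300 to 69300 in sham, 32300 to 52400 in PLATE and 10500 to 172000 CPM in control. With their level as a covariate the median for PLATE against acellular was smaller, as given in the last section. It was larger for PLATE against control (0.69, beside 0.31) and against sham (0.57, beside 0.37). For acellular it was -0.21 against control and -0.28 against sham, beside -0.41 and -0.52. ACTA2 is in both the marker list and the target list. The part of the smooth muscle markers in these values was not otherwise tested.

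By gene, COL3A1, the type III collagen chain, stood at 19300, 8680, 8760 and 14800 CPM in PLATE 1, 5, 9 and 13 and at 4320, 3830 and 2570 CPM in acellular 6, 8 and 10. This separation held in every library, at 1.85 ± 0.641 (edgeR adjusted p = 0.875) and 1.59 without PLATE 1. FN1, fibronectin, stood at 10700, 5250, 4260 and 4120 CPM against 1610, 2990 and 1780 CPM, again without overlap. LOXL2, a collagen crosslinking enzyme, had 434, 85.8, 104.2 and 117 CPM against 47.1, 65.0 and 49.8 CPM. PMEPA1, a feedback inhibitor that TGF-beta induces, differed from these, with 11.1 CPM in PLATE 1 and 0.742, 2.77 and 2.12 CPM in the other PLATE libraries against 0.775 to 1.01 CPM in acellular. CCN2 and CCN1, matricellular proteins that respond to TGF-beta and to tension, had values of the other sign, -0.97 ± 0.562 and -1.33 ± 0.925, which turned to 0.12 and 0.75 without acellular 6. That library had 730 CPM of CCN2 and 1380 CPM of CCN1, against at most 217 and 195 CPM in acellular 8 and 10.

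In the other comparisons the target list had medians of -0.41 for acellular against control (7 of 26 higher), -0.52 for acellular against sham (8 higher), 0.31 for PLATE against control (22 higher) and 0.37 for PLATE against sham (22 higher). Without PLATE 1 the last 2 were -0.03 with 12 higher and 0.06 with 16 higher. The first was -0.70 without acellular 8, and the second -0.33 without sham 11. The 12 tested BMP target genes had medians between -0.08 and 0.18 over the 6 pairs, with single genes from -0.91 (sham against control) to 1.40 (PLATE against acellular). This list also holds members, SMAD7 among them, so its values are not separate from theirs. The highest value of the list equalled that of the member GREM1, low in counts, for PLATE against acellular (1.40), control (1.24) and sham (1.17). It is therefore not read as a second gene beside GREM1. ATOH8, a transcription factor induced by BMPs, averaged 1.97 ± 0.596 CPM in acellular and 1.13 ± 0.494 in control (log2 fold change 0.75 ± 0.384, adjusted p = 0.848). Whether the target genes differ from the members was not tested.

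**Figure D4:**
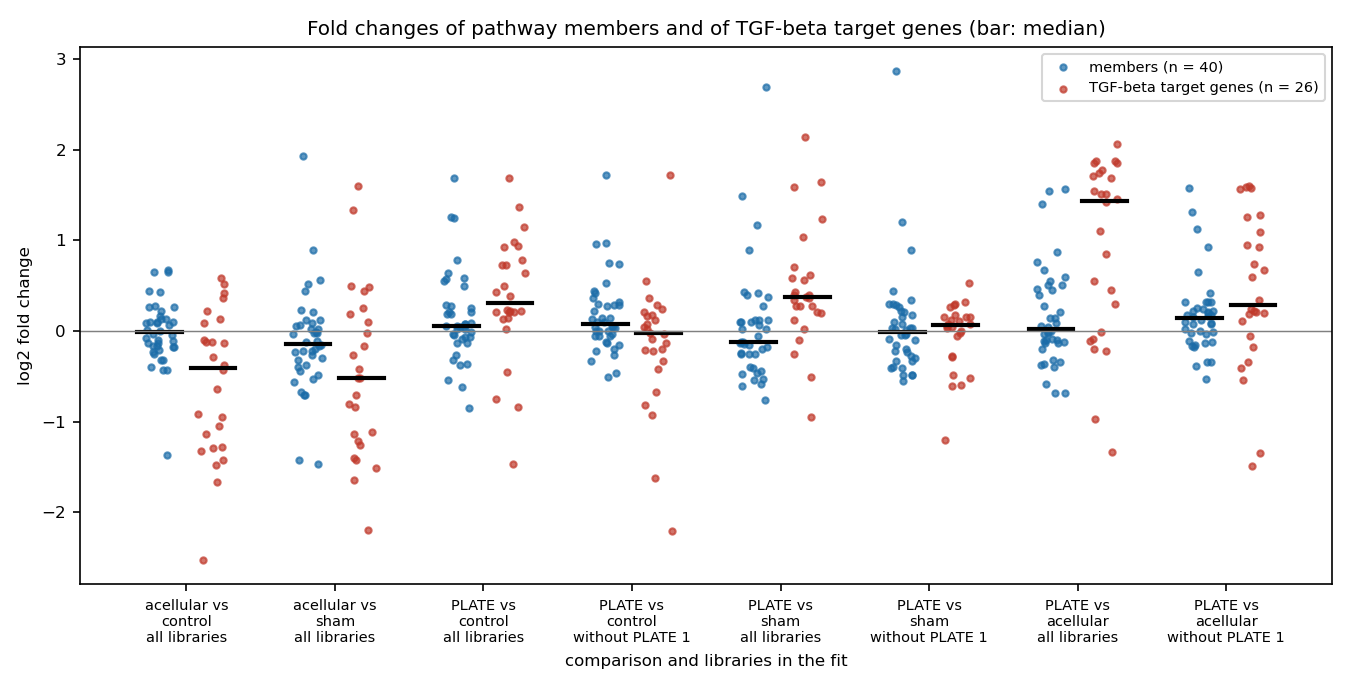
Log2 fold changes of the 40 tested members (blue) and of 26 TGF-beta target genes (red) in 5 pairwise comparisons, each point 1 gene and each bar the median, with the PLATE comparisons also shown without PLATE 1. The medians of the members lie near 0 throughout, while the target genes of PLATE against acellular have a median of 1.44 with all libraries and 0.29 without PLATE 1.

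The remaining genes of the pathway, in 5 further lists, gave 0 calls in any comparison by edgeR. Among the activators and stores of latent TGF-beta, 16 genes tested, ITGB6, the epithelial integrin subunit that frees TGF-beta, averaged 10.3 ± 7.58 CPM in acellular against 3.08 ± 0.276 in sham (log2 fold change 1.72 ± 0.525, adjusted p = 0.902). The columnar epithelium marker sums given above were also higher in acellular than in sham, and their part was not tested. FBN2, a fibrillin, averaged 9.79 ± 15.1 CPM in PLATE against 1.59 ± 1.2 in control, and reached 32.4 CPM in its highest library. Among 15 other antagonists and matrix modulators, FSTL1, a follistatin-like glycoprotein, stood at 167 to 204 CPM in acellular and 247 to 442 CPM in sham, without overlap (-0.79 ± 0.238, adjusted p = 0.902). The BMP co-receptor RGMA averaged 9.45 ± 1.27 CPM in sham and 5.48 ± 2.43 in PLATE (-0.77 ± 0.337, adjusted p = 0.657), and RGMB 40.8 ± 5 and 27.3 ± 6.71 CPM. The 26 Smad regulators and partners had medians between -0.11 and 0.10. Among them SP1, a transcription factor that cooperates with Smads, averaged 69.2 ± 1.44 CPM in sham and 53.5 ± 9.37 in control, and SNX25, a sorting nexin of TGF-beta receptors, 16.3 ± 3.88 and 22.8 ± 6.38 CPM. BMP1, a procollagen protease that also cleaves chordin, was the 1 gene tested among other ligands by name. It averaged 142 ± 154 CPM in PLATE, reaching 373 CPM in its highest library, against 38.6 ± 2.66 in acellular. Its log2 fold change for PLATE was 1.87 ± 0.562 against acellular (adjusted p = 0.875) and 1.2 against control. Without PLATE 1 these were 0.75 and 0.08.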

How the data were processed

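The authors deposited 1 table of raw read counts per gene symbol for the 16 libraries. Per the labels' protocols, stranded poly(A) libraries (TruSeq Stranded mRNA) were sequenced on a NovaSeq, and FastQC, HISAT2 2.2.1 and featureCounts are named in the submitters' processing notes; genome build, annotation and strand setting are not given in the sources used here. Each column was assigned through the sample index at its end, which the labels give. The pooled line of genes without a symbol, 22.9 to 28.5% of counts, was left out.

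Counts were filtered with filterByExpr, normalised by TMM and tested by quasi-likelihood in edgeR 4.0.16 (R 4.3.3). The model held the 16 libraries and 1 mean for each group, with 12 residual degrees of freedom, a common biological coefficient of variation of 0.44 and a prior count of 2. P-values were Benjamini-Hochberg adjusted over the 10942 genes tested, with a threshold of 0.05, and all adjusted p-values in the text are from this fit unless another tool is named. The procedure was tested on simulated data. Standard errors follow log2 fold changes and SDs follow CPM means. Alternatives were DESeq2 size factors, no filter, DESeq2 1.42.0, limma 3.58.1 voom with quality weights, the compared groups alone, libraries left out singly or together, and a smooth muscle covariate; the target gene median was added to them after the data were seen. Members, roles, gene lists and the rule for named genes (members past the threshold, the 3 with the smallest p in each comparison, and members chosen by role, some of them printed as ranges where groups overlapped) were chosen with earlier results of these data known. Members named for groups without overlap, and the target genes COL3A1, FN1, LOXL2, PMEPA1, CCN1 and CCN2, were chosen after their values were seen. Results of 1 member and of 1 target gene are not reported here by name, and both stay in the counts and medians.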

Additional observations from a re-analysis of the deposited data

Results flagged for a closer look

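A value was marked for a second look, with no library removed, when its gap to the nearest other value of its group, divided by the range of the group, exceeded the 95% critical value of Dixon's test on log2(CPM + 0.5). Of 80 sets of values tested, the 40 members in control and in PLATE, 6 were marked, where chance alone marks about 1 in 20. Of these, 5 came from PLATE 1 and all were low values: TGFBR3 at 27.4 CPM (188 to 215 in the other PLATE libraries), BMPR1A at 22.8 CPM (65.5 to 78.3), BMPR2 at 26.1 CPM (65.9 to 75.9), TGFBR1 at 31.6 CPM (61.3 to 68.7) and BMP3 at 0.388 CPM (2.80 to 3.54). The other was GDF11, a ligand related to myostatin, in control 2 at 2.52 CPM (5.54 to 6.67 in the other controls). Members share libraries, so the 5 marks of PLATE 1 are not independent of each other.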

How the results depend on the processing

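The count of members past the threshold was 0 in all 8 comparisons under each of the 23 or 24 alternatives run for it, with a smallest adjusted p of 0.0588 (limma voom, acellular against sham). The median log2 fold change of the members moved by less than its spread between libraries (0.182) except for PLATE against acellular with the smooth muscle level as covariate, where it was 0.20 against 0.02. Among the 32 fold changes of named members followed, 1 changed sign: FST, acellular against control, ran from -0.11 (without acellular 6) to 0.96 with single libraries left out. Without acellular 6, CCN1 and CCN2 changed sign for PLATE against acellular, from -1.33 to 0.75 and from -0.97 to 0.12, in fits added after seeing the data. The target gene median for PLATE against acellular ran from 0.29 (without PLATE 1) to 1.47 with single libraries left out, and was 0.47 with limma voom, 0.27 without control 2 and PLATE 1, 0.27 also without control 9, and 0.93 with the smooth muscle covariate; the cause was not tested. No paired analysis was possible because the groups share at most 1 animal number, 9, in control and PLATE. Groups of 3 to 6 libraries and levels resting on under 40 counts a library (GDF10, GREM1) limit what could be detected.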
